A study of Mus musculus with 2 samples.

Results

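The 33 genes described here encode the enzymes and regulators of cholesterol and fatty acid synthesis. They were read from a fixed list of gene symbols, and all 33 were found among the 27999 genes of each library. Of these, 15 encode enzymes from Hmgcs1 to Dhcr7 that build cholesterol (the sterol list), 12 encode enzymes that make, lengthen or desaturate fatty acids (the fatty acid list), 5 encode the regulators Srebf1, Srebf2, Scap, Insig1 and Insig2, and Stard4 encodes a protein that moves cholesterol between membranes. Single-cell RNA sequencing on the 10x Genomics droplet platform was done on whole lungs, taken apart by enzymes, from female FVB/NJ mice. The mice were 10 weeks old when Met-1 cells, a line grown from a mammary tumor of a mouse with the PYMT transgene, were injected into the tail vein. Low burden was sampled at week 1 after injection and high burden at week 3, each as 1 library from 1 mouse, and the labels place both libraries in the same batch. Both mice carried Met-1 cells and no uninjected lung was included, so metastatic burden, week, mouse and sequencing depth cannot be told apart. With 1 library per group there is no replicate error, no test was possible, and the 95% intervals given here cover counting error only.

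Cholesterol is built from acetyl-CoA through mevalonate, isoprenoid units, squalene and lanosterol. Fatty acids are built by ATP citrate lyase, acetyl-CoA carboxylase and fatty acid synthase, and the products are then elongated and desaturated. SREBP transcription factors drive both pathways. SCAP carries the SREBP precursors out of the endoplasmic reticulum when sterols are scarce, and INSIG proteins hold them back when sterols are plentiful. In the lung, alveolar type 2 (AT2) cells make surfactant, a lipid and protein film rich in saturated phosphatidylcholine, and alveolar macrophages take up and degrade it. Dividing tumor cells need sterols and fatty acids for new membranes.

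Cells were sorted into 17 classes by marker gates that count markers of each cell type. Each class is called by its name followed by "-like". After filtering, 2473 low-burden and 3033 high-burden cells remained, with a median of 4073 and 13998 unique molecular identifiers (UMIs, counted mRNA molecules) per cell. The libraries shared 11 cell barcodes. The AT2-like gate took in 108 cells at low and 47 cells at high burden. The 9 AT2 markers summed to 304573 and 290601 CPM (UMIs of a gene in every 1000000 UMIs of the class) in it, against 3060 and 1541 CPM in all other cells. In every class with at least 20 cells, each detected marker of its name was higher than in the other cells of the library. The gates used these same markers, so these levels describe the gates and are no separate check of the names. The alveolar macrophage-like gate held 436 and 3 cells, the stromal-like gate 460 and 65, and the metastatic-like gate 0 and 1387. Levels below are CPM of the UMIs summed over the cells of a class. They are not scaled by transcript length, so each gene was compared between classes and libraries, not with other genes. A member was called higher or lower where its level differed at least 2-fold and its UMIs over both sums reached 50, and the share of all genes with that many UMIs that met the same limits is given beside the first count. A class was compared only with at least 20 cells.

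RNA freed from broken cells adds a background to every droplet. From Sftpc and Scgb1a1 in the T-like, NK-like and B-like gates, where these genes should be absent, the free RNA was estimated at 8.40% of the level over all cells in the low-burden library and 20.6% in the high-burden library. The background expected for the sterol list was therefore 22.6 CPM in the low-burden and 103 CPM in the high-burden library, and for the fatty acid list 48.5 and 97.3 CPM. Expected background made up 3.3% and 18.4% of the sterol list level of AT2-like cells at low and high burden, against 12.3% and 32% in monocyte or macrophage-like cells. Where free RNA is said to be subtracted below, the 8.40% or 20.6% was also taken off the UMI total of the class. That second step by itself raises ratios of high over low burden, because the share was larger at high burden.

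Promoter sequences were searched because SREBP proteins bind sterol regulatory elements next to sites for NF-Y and Sp1. RefSeq promoter windows on GRCm38.p6, from 250 bases before to 50 bases after a transcript start, matched 26 of the 33 members in 36 windows. No window was given for Sqle, Stard4, Fdps, Scd1, Fads1, Scd2 or Fdft1. The letters TCACNCCAC on either strand occurred in 1.24% of all 32851 windows and in 1 member, Hmgcs1, whose enzyme makes HMG-CoA ahead of mevalonate. CCAAT occurred in 37.4% of all windows and in 63.9% of the member windows (22 members), GGGCGG in 35.7% and 72.2% (21 members), and the E-box CACGTG in 7.15% and 19.4% (Insig1, Dhcr7, Sc5d, Hsd17b7, Scap and Elovl5). A match shows that these letters are present, not that a factor bound there. The 250 bases before the start are shown for Hmgcs1 (chr13:119690101-119690350, plus strand) with TCACNCCAC in capitals, 137 bases before the start. With CCAAT on either strand in capitals, they are shown for the members called at lower level in AT2-like cells at high burden, Insig1 (chr5:28071162-28071411, plus strand) and Idi1 (chr13:8885356-8885605, plus strand), and for fatty acid synthase, Fasn (chr11:120824548-120824797, minus strand). These last 3 were chosen after their values were seen.
Hmgcs1: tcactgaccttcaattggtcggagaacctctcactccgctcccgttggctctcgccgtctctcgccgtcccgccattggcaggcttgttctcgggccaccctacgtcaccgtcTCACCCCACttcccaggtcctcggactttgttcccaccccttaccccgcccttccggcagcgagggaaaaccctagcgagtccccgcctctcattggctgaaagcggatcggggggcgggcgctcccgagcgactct
Insig1: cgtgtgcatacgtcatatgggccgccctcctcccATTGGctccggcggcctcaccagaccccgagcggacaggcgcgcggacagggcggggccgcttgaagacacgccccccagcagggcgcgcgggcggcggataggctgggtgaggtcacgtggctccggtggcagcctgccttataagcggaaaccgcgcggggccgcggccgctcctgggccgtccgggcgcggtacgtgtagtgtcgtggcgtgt
Idi1: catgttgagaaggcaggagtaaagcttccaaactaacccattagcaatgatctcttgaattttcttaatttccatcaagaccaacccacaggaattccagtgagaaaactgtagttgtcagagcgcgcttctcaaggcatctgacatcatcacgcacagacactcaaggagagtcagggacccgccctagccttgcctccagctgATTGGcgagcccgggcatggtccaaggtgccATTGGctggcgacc
Fasn: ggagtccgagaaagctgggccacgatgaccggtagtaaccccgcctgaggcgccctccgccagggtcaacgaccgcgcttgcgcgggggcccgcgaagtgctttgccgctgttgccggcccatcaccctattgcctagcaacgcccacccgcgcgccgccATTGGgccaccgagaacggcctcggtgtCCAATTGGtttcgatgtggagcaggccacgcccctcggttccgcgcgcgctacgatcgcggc
Insig1 held 1 CCAAT match, 216 bases before the start. Idi1 held 2, at 45 and 14 bases, and Fasn held 3, at 90, 62 and 59 bases before the start.

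The class with the highest level differed between members. The share of all genes highest in each class was not counted, so the counts in this paragraph describe the members only. At low burden, AT2-like cells had the highest level of 15 of the 33 members among 14 classes, and for 6 of them (Insig1, Idi1, Fdps, Fasn, Scd1 and Elovl1) the interval did not overlap that of the next class. AT1-like cells, the thin gas-exchange epithelium, had the highest level of 7 members, with separate intervals for Scd2 and Elovl5. Alveolar macrophage-like cells were highest for Dhcr7, Hsd17b7 and Mvd, stromal-like cells for Sc5d, and ciliated-like cells for Sqle, each with intervals that overlapped those of the next class. At high burden, AT2-like cells were highest for 12 members among 10 classes, with separate intervals for Fasn, Scd1, Scd2 and Elovl1. Dendritic-like, mesothelial-like and metastatic-like cells were each highest for 5 members, with separate intervals for Pmvk in dendritic-like and Elovl6 in metastatic-like cells. AT1-like cells were too few at high burden to enter this order.

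**Figure D1:**
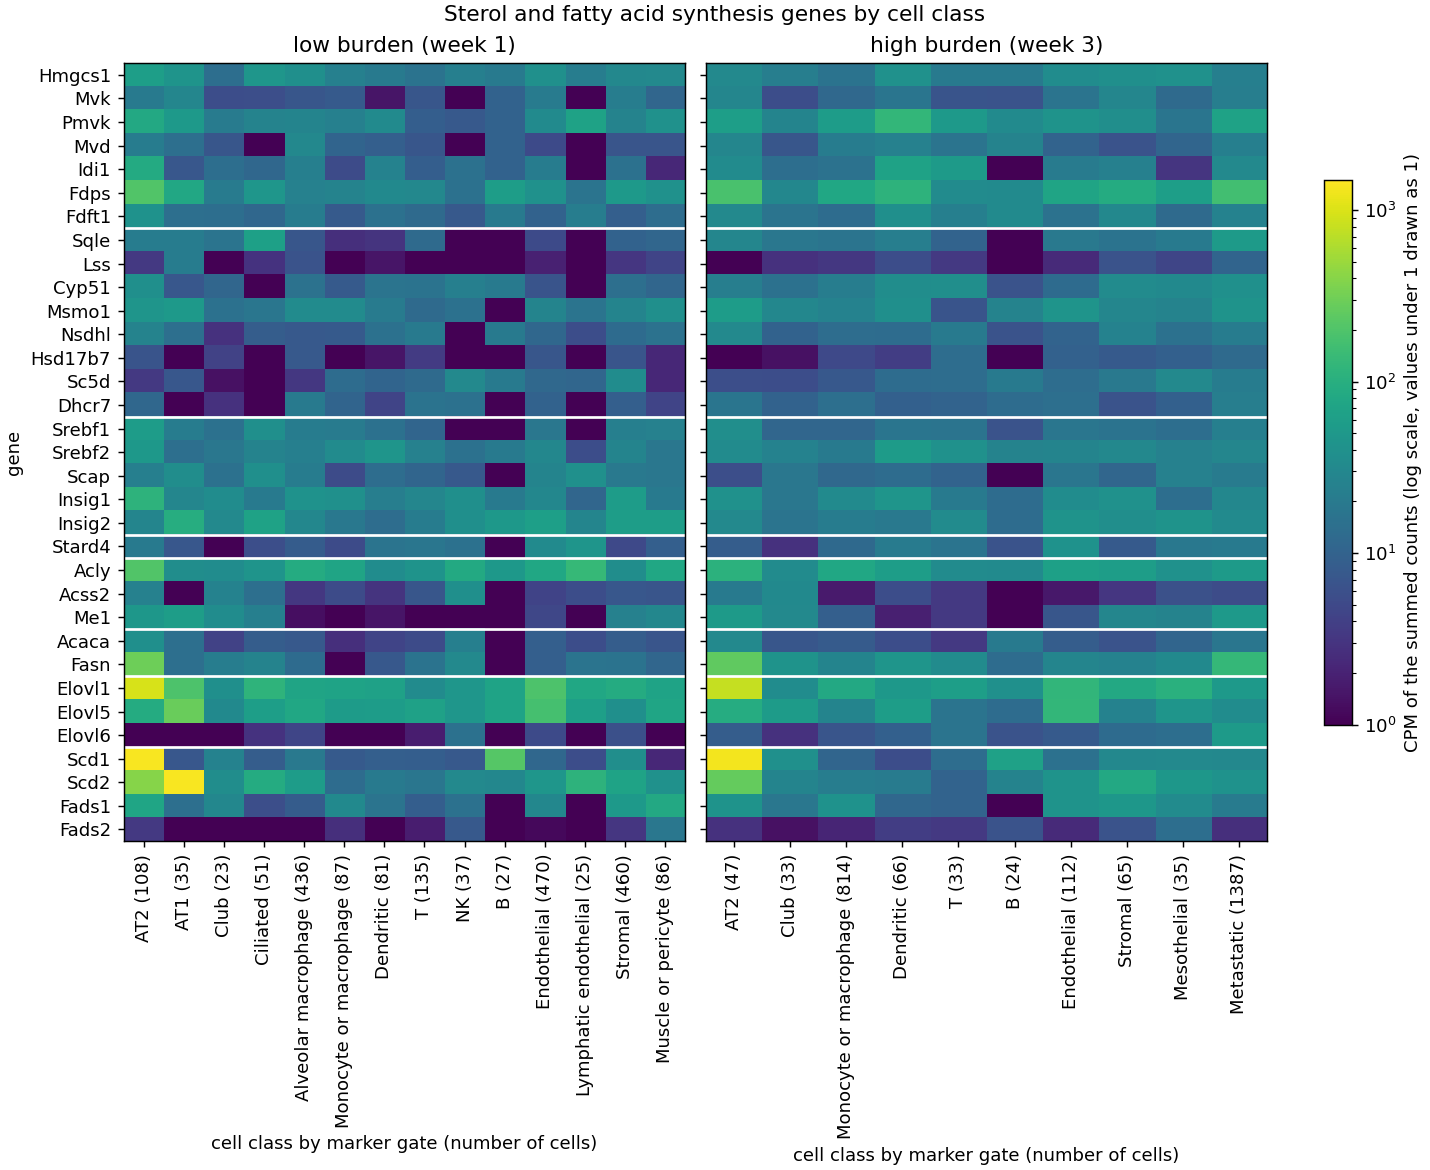
Level of each of the 33 genes (rows) in each cell class with at least 20 cells (columns) in the low-burden and high-burden libraries, as CPM on a logarithmic color scale. The AT2-like columns stand out for the fatty acid genes in both libraries, with Scd1 at 1403 and 1328 CPM, and the AT1-like column for Scd2 at 1411 CPM.

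Summed over the 15 sterol genes, the level at low burden was 675 CPM in AT2-like cells (interval 611 to 744), 364 CPM in AT1-like cells, 281 CPM in stromal-like cells, 274 CPM in alveolar macrophage-like cells, 251 CPM in endothelial-like cells and 152 CPM in club-like cells. At high burden, metastatic-like cells stood at 585 CPM (576 to 593), dendritic-like cells at 571 CPM (509 to 640) and AT2-like cells at 561 CPM (485 to 645). These 3 classes led the order, and their intervals overlapped. The 12 fatty acid genes summed to 3558 CPM in AT2-like cells, 2037 CPM in AT1-like cells and 568 CPM in endothelial-like cells at low burden. At high burden, AT2-like cells stood at 3003 CPM, metastatic-like cells at 495 CPM and endothelial-like cells at 468 CPM, the last 2 with overlapping intervals. The summed fatty acid list was therefore highest in AT2-like and, at low burden, AT1-like cells, while the sterol list was spread over more classes. The AT1-like sum came mostly from 1 gene, Scd2, with 194 of the 280 UMIs. Fasn and Acaca had 2 UMIs each in AT1-like cells, and Scd1 had 1.

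**Figure D2:**
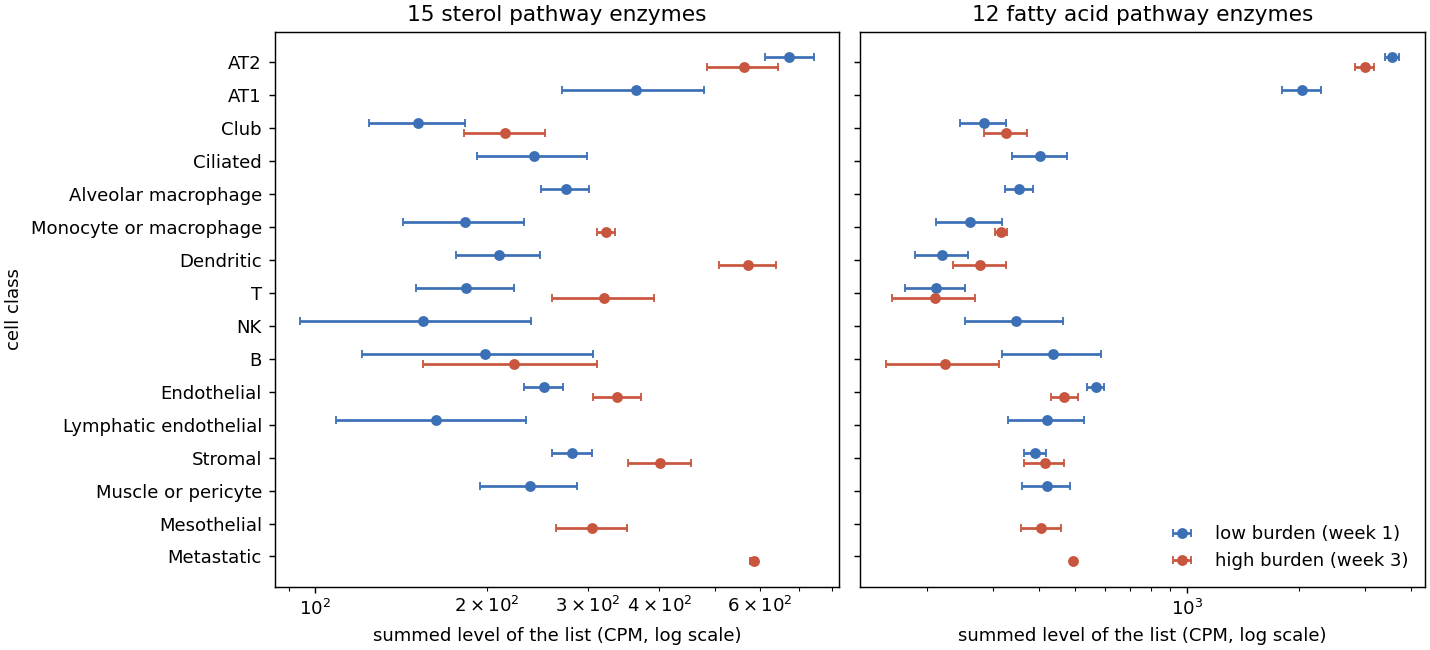
Summed level of the 15 sterol genes and of the 12 fatty acid genes (CPM) by cell class in the low-burden and high-burden libraries, with exact Poisson 95% intervals as bars. AT2-like cells lead for fatty acid genes at 3558 and 3003 CPM, whereas for sterol genes metastatic-like cells reach 585 CPM beside 561 CPM in AT2-like cells.

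AT2-like cells were first compared with all other cells of the same library. At low burden, 18 of 31 members with enough UMIs were at least 2-fold higher in AT2-like cells, beside 4.85% of all genes, and 1 was lower, beside 40.7% of all genes. Surfactant RNA takes up a large part of the UMIs of these cells, and the median of all genes lay at a log2 ratio of -0.77. Scd1, the stearoyl-CoA desaturase that makes monounsaturated fatty acids, had 1403 CPM (844 UMIs) in AT2-like cells against 24.997 CPM elsewhere, a 56.1-fold difference (log2 5.81, interval 5.622 to 6.001). Fasn had 302 CPM against 15.3 CPM (log2 4.31, interval 4.01 to 4.60). Elovl1, which elongates very long saturated and monounsaturated fatty acids, had 971 CPM against 106 CPM (log2 3.19, interval 3.05 to 3.33), though its exons overlap those of Cdc20 on the opposite strand. The desaturase Scd2 stood at 397 CPM against 70.6 CPM.

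The genes that supply fatty acid synthesis shared this pattern. Acly, which cleaves citrate to acetyl-CoA, had 208 CPM in AT2-like cells against 62.1 CPM in the others. Acaca, the acetyl-CoA carboxylase that commits acetyl-CoA to fatty acids, had 38.2 CPM against 8.28 CPM, the malic enzyme gene Me1, a source of NADPH, had 48.2 CPM against 11.1 CPM, and the acetyl-CoA synthetase gene Acss2 had 24.9 CPM against 7.49 CPM. Fads1, which desaturates polyunsaturated fatty acids, had 73.1 CPM against 30.2 CPM. Of the sterol enzymes, Fdps, which makes farnesyl diphosphate, was the furthest apart at 204 CPM against 38.8 CPM (log2 2.40, interval 2.10 to 2.69). Idi1, the isomerase of isopentenyl diphosphate, had 88.1 CPM against 17.4 CPM. Pmvk, Fdft1, Sqle, Cyp51 and Nsdhl were 2.30-fold to 3.37-fold higher. Among the regulators, Insig1 had 113 CPM against 37.2 CPM and Srebf1 had 56.5 CPM against 20.5 CPM. Sc5d, a desaturase near the end of cholesterol synthesis, was the member at lower level, with 2 UMIs (3.32 CPM) against 15.0 CPM.

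In the high-burden library, 7 of 33 members were at least 2-fold higher in AT2-like cells (8.96% of all genes) and 4 were lower (28.0% of all genes). All 7 belong to fatty acid synthesis. Scd1 had 1328 CPM against 28.1 CPM (log2 5.56, interval 5.41 to 5.71), Elovl1 had 799 CPM against 64.2 CPM, Scd2 had 266 CPM against 39.4 CPM and Fasn had 249 CPM against 99.3 CPM. Acaca was 2.16-fold, the elongase gene Elovl5 2.38-fold and Acss2 3.94-fold higher. Elovl6, which elongates palmitate to stearate, was lower at 8.59 CPM (3 UMIs) against 38.9 CPM, and Sc5d, Scap and Stard4 were lower on 2, 2 and 3 UMIs with intervals that included 0. The sterol list was 2.71-fold higher in AT2-like than in other cells at low burden (log2 1.44, interval 1.28 to 1.59) but did not separate from them at high burden (log2 0.16, interval -0.05 to 0.37). Metastatic-like cells held 19452 of the 25595 sterol list UMIs of the other high-burden cells. The fatty acid list was 8.16-fold higher at low and 6.60-fold higher at high burden.

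Between the libraries, AT2-like cells had somewhat lower levels of both lists at high burden. The sterol list went from 675 to 561 CPM (log2 -0.27, interval -0.52 to -0.02) and the fatty acid list from 3558 to 3003 CPM (log2 -0.24, interval -0.35 to -0.14). The fatty acid ratio was -0.0663 with the expected free RNA subtracted from list and class total, and -0.52 with cells weighted alike. Over single cells, the median level of the fatty acid list was 3119 CPM at low burden (middle of the cells from 2118 to 4284) and 2216 CPM at high burden (1521 to 3650), so the cells of the libraries overlapped widely. Of the 33 members, 11 had 50 or more UMIs over both sums. None of these 11 was at least 2-fold higher at high burden, where 2.82% of all 1774 genes were, and 2 were at least 2-fold lower, where 3.55% of all genes were. The median log2 ratio was -0.47 over the 11 members and 0.04 over all 1774 genes.

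Insig1 and Idi1 were the 2 members called. Insig1, whose promoter is shown above and whose protein holds back SREBP processing, had 68 UMIs (113 CPM) at low burden and 14 UMIs (40.1 CPM) at high burden (log2 -1.50, interval -2.44 to -0.65). Idi1 had 53 UMIs (88.1 CPM) and 12 UMIs (34.4 CPM), a log2 ratio of -1.36 (interval -2.40 to -0.44). With each cell thinned to 3000 UMIs, the Idi1 ratio was -0.59 and no longer past 2-fold, whereas Insig1 ranged from -1.70 to -1.42 over 9 alternative settings. A smaller difference was seen for Acly, from 125 UMIs (208 CPM) to 38 UMIs (109 CPM), a log2 ratio of -0.93 (interval -1.50 to -0.40). Scd2 went from 397 to 266 CPM (log2 -0.58, interval -0.94 to -0.23) and Elovl1 from 971 to 799 CPM (log2 -0.28, interval -0.49 to -0.07).

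Other AT2 members had intervals that included 0. Scd1 stood at 1403 CPM (844 UMIs) and 1328 CPM (464 UMIs), with a log2 ratio of -0.08 (interval -0.25 to 0.09), although 1 high-burden cell held 20.5% of its UMIs. Fasn had 302 and 249 CPM (log2 -0.28, interval -0.67 to 0.10), Fdps had 204 and 183 CPM (-0.16, interval -0.62 to 0.29), and Elovl5 had 89.7 and 91.6 CPM (0.03, interval -0.65 to 0.69). Pmvk, a kinase of the mevalonate pathway, had 83.1 and 60.1 CPM, and Fads1 had 73.1 and 42.9 CPM. The regulator genes Srebf1 (34 and 13 UMIs), Srebf2 (30 and 12 UMIs) and Scap (14 and 2 UMIs) and the first sterol enzyme gene Hmgcs1 (36 and 11 UMIs) each had a lower level at high burden but fell short of 50 UMIs. Their intervals included 0, so no difference was detectable at this depth. The remaining 18 members had 2 to 48 UMIs over both libraries. In these same cells, the cycling markers summed to 28.3 CPM in the low-burden and 152 CPM in the high-burden library, the metastatic markers at 93.1 and 409 CPM and the monocyte or macrophage markers at 44.9 and 386 CPM; their part in the differences was not tested.

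**Figure D3:**
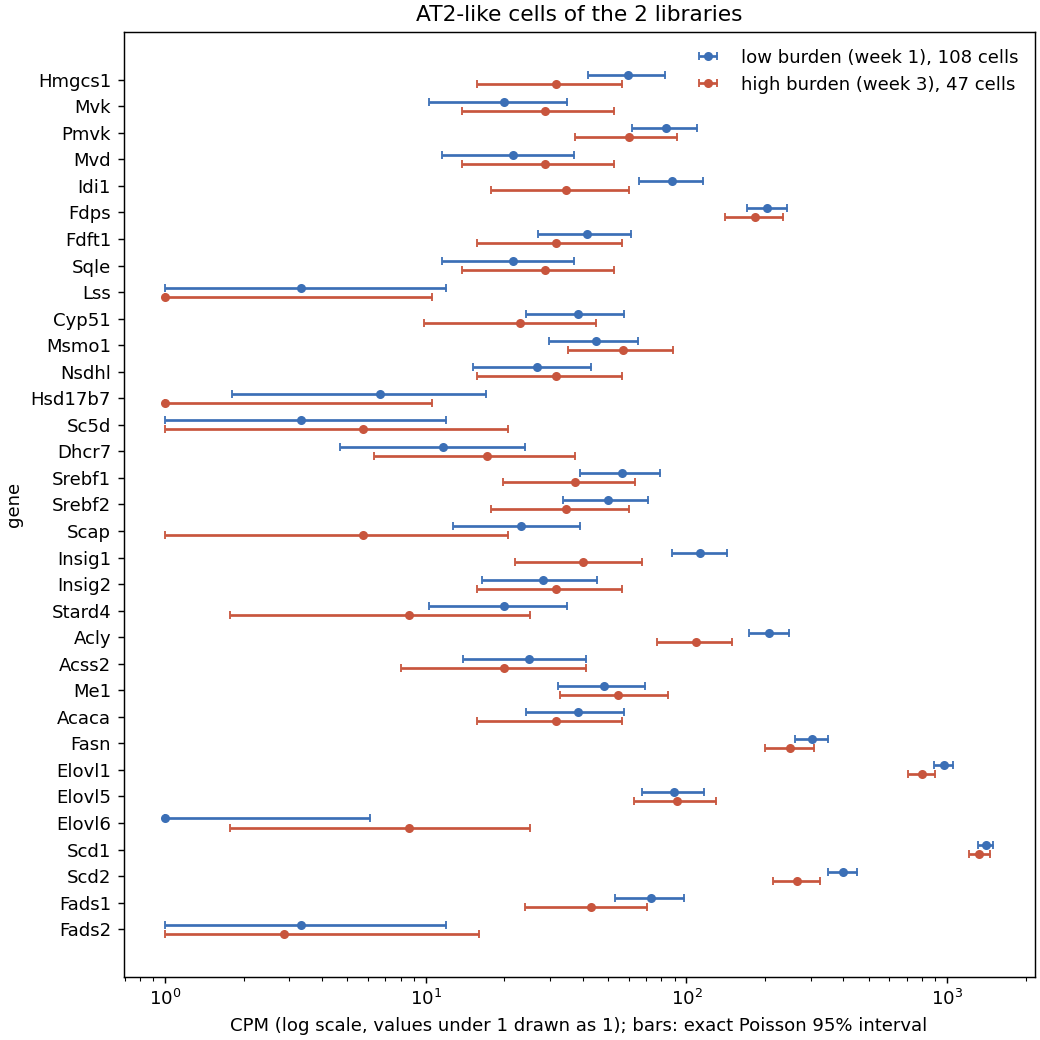
Level of each member in AT2-like cells (CPM on a logarithmic axis) in the low-burden library (108 cells) and the high-burden library (47 cells), with exact Poisson 95% intervals as bars. The intervals of Insig1 (113 and 40.1 CPM), Idi1 (88.1 and 34.4 CPM), Acly (208 and 109 CPM) and Scd2 (397 and 266 CPM) lie apart, whereas those of Scd1 (1403 and 1328 CPM) overlap.

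AT1-like cells differed from AT2-like cells in the desaturase they carried. In the 35 low-burden AT1-like cells, Scd2 had 194 UMIs (1411 CPM) against 71.5 CPM in all other cells (log2 4.30, interval 4.07 to 4.53), while Scd1 had 1 UMI (7.27 CPM) against 88.2 CPM. Of 31 members, 6 were at least 2-fold higher (14.9% of all genes) and 5 lower (15.7% of all genes). Elovl5, which elongates polyunsaturated fatty acids, had 284 CPM against 90.8 CPM (log2 1.64, interval 1.14 to 2.10), Me1 had 58.2 CPM against 12.3 CPM, and Insig2 had 94.6 CPM against 44.7 CPM (log2 1.08, interval 0.16 to 1.87). The other calls, Sqle, Mvk, Idi1, Srebf2, Fads1 and Stard4, rested on 1 to 4 UMIs in AT1-like cells and had intervals that included 0. The 9 high-burden AT1-like cells held 48 UMIs of Scd2 (866 CPM) and none of Scd1.

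Alveolar macrophage-like cells, of which only 3 were found at high burden, were described at low burden. Their sterol list level of 274 CPM was not separated from the 268 CPM of the other cells (log2 0.03, interval -0.12 to 0.18), and their fatty acid list level was lower, 353 CPM against 607 CPM (log2 -0.78, interval -0.91 to -0.65). Of 31 members, 2 were at least 2-fold higher (10.2% of all genes) and 9 were lower (32.3% of all genes). The 2 at higher level were Mvd, the mevalonate diphosphate decarboxylase gene (47 UMIs, 30.6 CPM against 9.62 CPM, log2 1.67, interval 1.14 to 2.17), and Dhcr7, the gene of the last step of cholesterol synthesis (31 UMIs, 20.2 CPM against 8.60 CPM, log2 1.23, interval 0.60 to 1.82). Scd1 had 19.5 CPM against 96.3 CPM, Fasn 13.0 against 30.3 CPM, Elovl1 70.9 against 155 CPM and Me1 1.30 against 14.3 CPM. Of the other low-burden cells, AT2-like cells held most Scd1 UMIs and 2141 of the 7125 fatty acid list UMIs. The Scd1 and fatty acid list comparisons therefore rest in part on AT2-like cells. Also lower were Sc5d, Mvk, Acss2, Fads1 and Stard4. The members with the most UMIs in this class were Acly (89.7 CPM), Elovl5 (78.0 CPM), Elovl1, Scd2 (56.6 CPM) and Insig1 (41.6 CPM).

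Stromal-like cells, the fibroblasts of the lung wall, were higher than the other low-burden cells for Sc5d (77 UMIs, 35.2 CPM against 10.4 CPM, log2 1.77, interval 1.33 to 2.20) and Me1 (25.2 against 10.4 CPM) among 31 members (10.2% of all genes). Acly, Scd1 (37.1 against 97.3 CPM), Elovl5 and Stard4 (5.03 against 18.9 CPM) were lower (21.4% of all genes). AT2-like cells held most of the Scd1 UMIs of the other cells. The 97.3 CPM therefore describes AT2-like cells more than the remaining classes. At high burden, Scd2 (83.7 against 40.4 CPM, log2 1.05, interval 0.62 to 1.45) and Fads2 (4 UMIs) were higher and 7 members, Sqle, Dhcr7, Mvd, Fasn, Acaca, Elovl6 and Stard4, were lower among 33 (12.5% and 15.3% of all genes). Metastatic-like cells held most UMIs of those other high-burden cells. The members with the most UMIs at low burden were Elovl1 (90.6 CPM), Scd2 (70.03 CPM), Insig2 (58.1 CPM), Insig1 (56.3 CPM) and Fads1 (52.6 CPM). At high burden they were Fdps (90.1 CPM), Elovl1 (83.7 CPM), Scd2, Acly (57.9 CPM) and Fads1 (48.3 CPM).

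Metastatic-like cells had more of the sterol enzymes than the rest of the high-burden lung. The gate rested on PYMT and tumor markers, whose sum was 2370 CPM in it against 534 CPM in other cells, with 10 of 10 markers higher. That difference follows from the gate itself. All 33 members had enough UMIs, and 7 were at least 2-fold higher (11.4% of all genes) and none was lower (21.2% of all genes). The median log2 ratio was 0.57 over the members and 0.07 over all genes. Of the 15 sterol list genes, 14 had an interval above 0, the exception being Hmgcs1 at 23.2 CPM. Both sums are large, so intervals are narrow, and the share of all genes with an interval above 0 was not counted. By the 2-fold limit, 4 of the 15 were higher. The list as a whole stood at 585 CPM against 348 CPM (log2 0.75, interval 0.71 to 0.79).

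The sterol genes called were spread along the pathway. Fdps had 164 CPM against 80.7 CPM (log2 1.03, interval 0.94 to 1.11). Sqle, the squalene epoxidase that introduces the first oxygen of the sterol, had 53.5 CPM against 19.0 CPM (log2 1.49, interval 1.33 to 1.66), and Lss, which closes the sterol rings, had 10.5 CPM against 3.90 CPM. Hsd17b7, which reduces a later sterol intermediate, had 12.5 CPM against 6.16 CPM. Among the fatty acid genes, Fasn had 131 CPM against 44.7 CPM (log2 1.55, interval 1.44 to 1.66), Elovl6 had 53.6 CPM against 11.4 CPM (log2 2.24, interval 2.03 to 2.45) and Me1 had 51.0 CPM against 16.6 CPM. In the other 9 classes Elovl6 ranged from 2.81 to 16.9 CPM, where 7.96 CPM was expected from free RNA. The fatty acid list as a whole was close between the groups, 495 CPM against 431 CPM (log2 0.20, interval 0.16 to 0.24, and 0.082 with median-of-ratios scaling). Scd1 (30.4 against 48.9 CPM), Elovl1 (51.8 against 101 CPM), Elovl5, Fads1 and Acly had intervals below 0. Of the other high-burden cells, AT2-like cells held most Scd1 UMIs and 1049 of the 7837 fatty acid list UMIs. The lower Scd1 level is therefore not a statement about each of the other classes. Fdps, Fasn, Pmvk (68.4 CPM), Acly (54.3 CPM) and Elovl6 had the most UMIs in these cells.

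**Figure D4:**
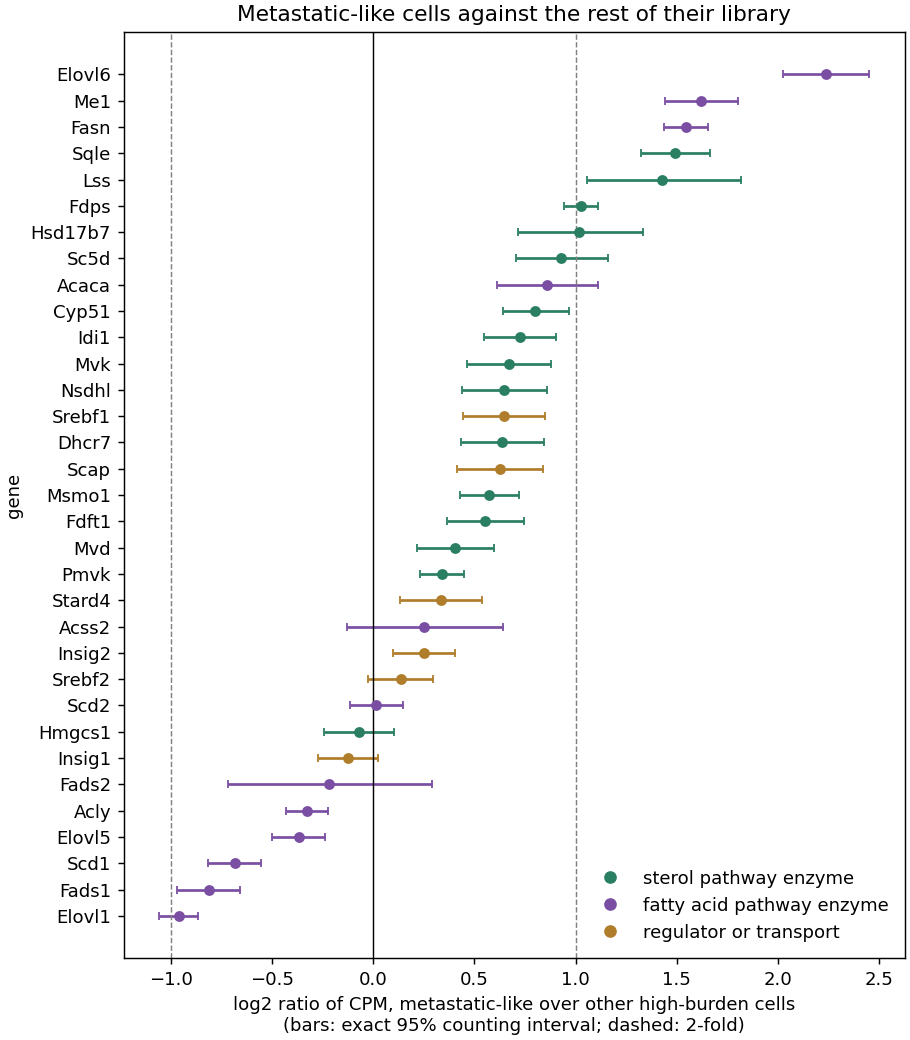
Log2 ratio of each member between metastatic-like cells and all other high-burden cells, with exact 95% intervals as bars. Elovl6 (2.24), Me1 (1.62), Fasn (1.55) and Sqle (1.49) lie furthest to the right, and Elovl1 (-0.96) furthest to the left.

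In dendritic-like cells (81 and 66 cells) the sterol list went from 210 to 571 CPM (log2 1.44, interval 1.15 to 1.74). The ratio was 1.53 with the expected free RNA subtracted from list and class total. Of 7 members with enough UMIs, 3 were at least 2-fold higher (4.76% of all genes) and none was lower (5.77% of all genes). These 3 were the only ones of the 15 sterol genes with enough UMIs. They had 17 to 22 UMIs at low burden, and the class sum was smaller at high burden (526888 against 662008 UMIs). At an unchanged level they would have been left out, so this count cannot show how many sterol genes differed. The list ratio uses all 15 genes without that limit. Pmvk went from 22 to 67 UMIs (33.2 to 127 CPM, log2 1.94, interval 1.22 to 2.70). Fdps went from 21 to 60 UMIs (31.7 to 114 CPM, log2 1.84, interval 1.11 to 2.64), and Idi1 from 17 to 36 UMIs (25.7 to 68.3 CPM, log2 1.41, interval 0.54 to 2.34). Of the Idi1 UMIs, 1 cell held 29.4% at low and 1 cell held 25% at high burden. The same cluster held 85.2% and 84.8% of these gate cells. In it the dendritic markers differed in balance, with Ccl22 at 205 and 457 CPM and Cd209a at 409 and 120 CPM. The cycling markers summed to 113 and 230 CPM, the metastatic markers to 119 and 349 CPM, and PYMT was at 0 and 68.3 CPM. The part of these in the result was not tested.

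In monocyte or macrophage-like cells (87 and 814 cells) the sterol list went from 183 to 322 CPM (log2 0.82, interval 0.47 to 1.18). Of 29 members, 10 were at least 2-fold higher (14.3% of all genes) and 1 was lower (11.1% of all genes). Intervals above 0 were found for Fdps (26.5 to 78.1 CPM, log2 1.56, interval 0.67 to 2.62), Pmvk (23.9 to 57.7 CPM) and Sqle (1 to 149 UMIs, 2.65 to 16.8 CPM). Fasn had 0 UMIs at low burden and 27.0 CPM at high burden, at least 3.39-fold higher when the low-burden library is set at 3 UMIs, beside an expected background of 20.7 CPM at high burden. The rest of the 10 were Idi1, Cyp51, Mvd, Scap, Acaca and Stard4, each with 1 to 4 UMIs at low burden. Elovl5 was lower, 55.7 against 27.2 CPM (log2 -1.03, interval -1.68 to -0.31). Different clusters held these cells in the libraries, 48.3% and 34.5% of the low-burden cells in 2 clusters led by C1q and Plac8 and 44.1% and 41.9% of the high-burden cells in 2 others led by C1q and Ccl12. With classes named from clusters the sterol list ratio was 0.28, and those of Idi1 (-0.41), Mvd (-0.76) and Acaca (-0.47) lay below 0.

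Endothelial-like cells (470 and 112 cells) had 251 and 338 CPM of the sterol list (log2 0.43, interval 0.25 to 0.61, 0.24 with the expected free RNA subtracted and 0.10 with classes from clusters) and 568 and 468 CPM of the fatty acid list (log2 -0.28, interval -0.42 to -0.14, and -0.0942 with classes from clusters). The clusters that held these cells differed in share, with 47.4% of the low-burden and 22.3% of the high-burden cells in the cluster led by Cldn5 and 11.7% and 25.9% in the one led by Ccl21a, and 80.4% and 53.6% kept the name by cluster. Fasn was the 1 member of 18 that was at least 2-fold higher (3.73% of all genes), from 9.04 to 27.9 CPM (log2 1.62, interval 0.82 to 2.45), and its ratio was 0.32 with the expected free RNA subtracted. None was lower (3.84% of all genes). Fdps went from 40.5 to 70.9 CPM as counted, of which 3.89 and 27.8 CPM were expected from free RNA. Elovl1 went from 193 to 123 CPM and Elovl5 from 176 to 125 CPM.

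Stromal-like cells had 281 and 401 CPM of the sterol list (log2 0.51, interval 0.29 to 0.72). After thinning to 3000 UMIs per cell the ratio was -0.0094, with classes from clusters it was 0.10, and with the top cell of each gene left out it was 0.17. A cluster led by Igfbp5 that held all mesothelial-like cells took in 27.7% of the high-burden stromal-like cells, whereas clusters led by Dcn and Inmt held 55.9% and 42.6% of the low-burden and 29.2% and 38.5% of the high-burden cells. Cyp51, the lanosterol demethylase gene, was the 1 member of 19 called higher (4.44% of all genes), from 32 UMIs (14.6 CPM) to 21 UMIs (33.8 CPM), and its ratio of 1.21 turned to -1.34 after thinning and to -1.30 with classes from clusters. Cyp51 too would have fallen short of 50 UMIs at an unchanged level, so its call is no sign of a difference by itself. None was lower (11.6% of all genes). Fdps went from 51.3 to 90.1 CPM (log2 0.81, interval 0.32 to 1.29), with 35.7% of the high-burden UMIs in 1 cell. Of these Fdps levels, 3.89 and 27.8 CPM were expected from free RNA. T-like cells (135 and 33 cells) had 184 and 321 CPM of the sterol list (log2 0.80, interval 0.38 to 1.22, and as low as 0.43 under other settings). Club-like cells, none of which kept that name by cluster, had 152 and 215 CPM (log2 0.51), and 0.01 with the expected free RNA subtracted. B-like cells had 198 and 223 CPM of the sterol list and 436 and 223 CPM of the fatty acid list (log2 -0.97, interval -1.66 to -0.29), largely through Scd1 at 22 and 10 UMIs. None of the members had 50 UMIs in T-like or B-like cells, and neither of the 2 that did in club-like cells was at least 2-fold higher (5.36% of all genes) or lower (2.24% of all genes).

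**Figure D5:**
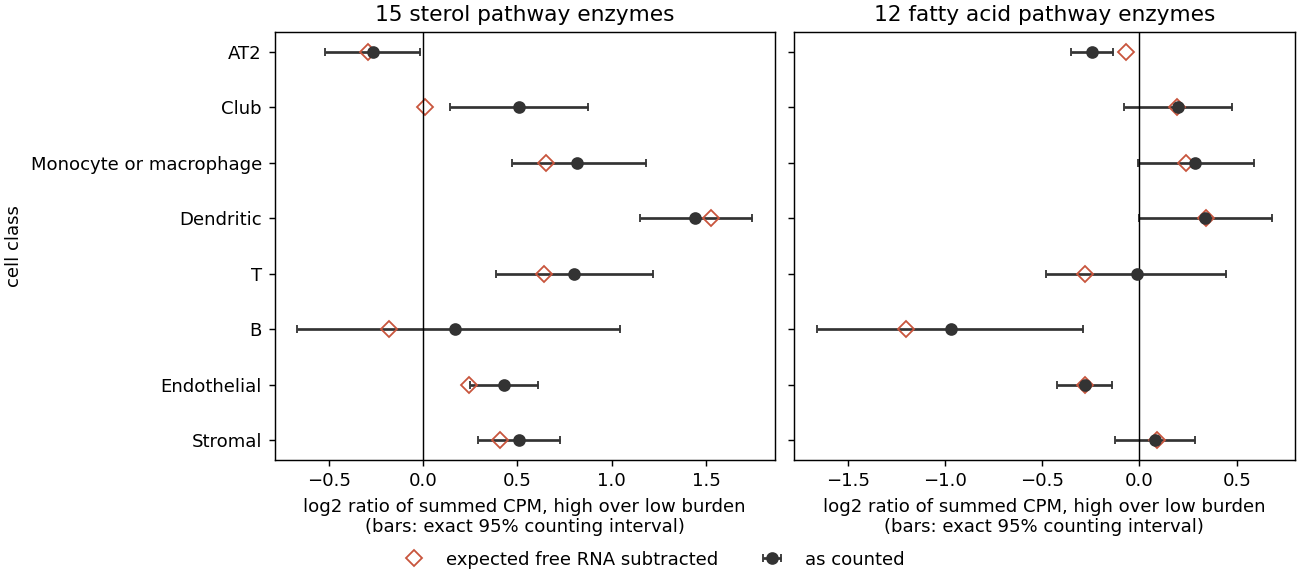
Log2 ratio of high over low burden of the sterol list and the fatty acid list in each class with at least 20 cells in both libraries, as counted and with the expected free RNA subtracted from list and class total, with exact 95% intervals as bars on the counted values. The sterol list lies below 0 in AT2-like cells (-0.27) and furthest above 0 in dendritic-like cells (1.44).

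Over all cells of the libraries, 7 of 33 members were at least 2-fold higher at high burden (11.8% of all genes) and 4 were lower (26.8% of all genes). Higher were Fdps (46.3 to 135 CPM), Sqle (9.94 to 41.3 CPM), Lss, Cyp51, Fasn (28.3 to 100.3 CPM), Elovl6 (4.22 to 38.6 CPM) and Me1. Lower were Scd1 (87.4 to 37.0 CPM), Scd2, Elovl1 and Elovl5, genes with high levels in AT2-like or AT1-like cells, of which fewer were found at high burden. Fewer cells of a class and less RNA per cell cannot be told apart in these sums. Without the metastatic-like cells, 1 member was higher (Elovl6, log2 1.43, beside 6.66% of all genes). Lower were 2 (Scd2, log2 -1.07, and Elovl5, log2 -1.03, beside 19.3% of all genes). Free RNA was expected to supply 7.96 CPM of Elovl6 in the high-burden library, most of its level outside the metastatic-like cells. In the low-burden library, 0.354 of the 4.22 CPM was expected from this source. The Elovl6 call was made on levels as counted. The sterol list ratio went from 0.90 (interval 0.85 to 0.95) to 0.38 (interval 0.32 to 0.43) when the metastatic-like cells were left out. The list then stood at 348 CPM in the high-burden library, with 103 CPM of it expected from free RNA. The low-burden library had 269 CPM, with 22.6 CPM of it expected from free RNA. The 0.38 is the ratio as counted, with no free RNA subtracted.

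Another 36 genes of lipid synthesis, uptake into glycerolipids and sterol handling were read beside the members. In AT2-like cells at low burden, 13 of 30 with enough UMIs were at least 2-fold higher than in other cells (4.85% of all genes). Lower were 3 (40.7% of all genes). Lpcat1, which remodels surfactant phosphatidylcholine, had 685 CPM against 41.8 CPM, Mid1ip1, which activates acetyl-CoA carboxylase, had 522 against 78.8 CPM, and Acsl4, a long-chain acyl-CoA synthetase gene, had 337 against 23.4 CPM. Between the libraries, none of the 7 with enough UMIs was called in AT2-like cells (2.82% of all genes higher and 3.55% lower). In metastatic-like cells 5 of 31 were higher (11.4% of all genes), among them Acat2 (29.1 against 12.6 CPM) and Tmem97 (79.3 against 34.7 CPM). Another 5 were lower (21.2% of all genes), among them Lpcat1 (20.5 against 44.2 CPM). Alveolar macrophage-like cells had 4 of 30 higher (10.2% of all genes) and 11 lower (32.3% of all genes), both near the share of all genes. The 4 were Lpin1 (163 against 18.6 CPM), Soat1, which esterifies cholesterol for storage (131 against 32.5 CPM), Dgat1, which makes triglyceride (37.7 against 14.1 CPM), and Acsl1. In dendritic-like cells 1 of 7 was lower between the libraries (5.77% of all genes) and none higher (4.76% of all genes).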

How the data were processed

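Droplet libraries of whole lung, 1 per group, were compared, grouped by their titles. The authors counted UMIs per gene and cell with Cell Ranger 2.0.2 on mm10 (per the submitters' processing notes), and the deposited values are raw counts. The study's methods name a later aggregation, and whether these counts precede it is not stated, nor is the annotation release. The libraries held 14041471 and 52723173 UMIs in 2668 and 3121 barcodes. Following the limits of the study, cells were kept if they had 1000 to 7000 genes and no more than 10% mitochondrial UMIs. Of 142 listed markers, 5 (Trac, Trbc1, Trbc2, Igkc and Ighm) are absent from the gene lists. Gate thresholds were set after the marker distributions were seen. Cells that passed gates of more than 1 compartment were set aside as mixed (222 and 204 cells), and 166 and 169 passed none. Doublets were otherwise kept. Scrublet marked 3 cells (0.121%) and 8 cells (0.264%), too few to have worked. Class names were rebuilt here and may differ from those of the study.

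Counts were summed per class, and ratios are on the log2 scale with exact conditional binomial 95% intervals (levels with exact Poisson intervals). A ratio against 0 UMIs was taken as a bound against 3 UMIs per library. Genes were named with full values where at least 50 UMIs and a 2-fold ratio were reached, and also where among the 5 with the highest CPM in the AT2, alveolar macrophage, metastatic and stromal classes. Others were added for their role after their values were seen. The members and lists were chosen with earlier results of these data known. The 33 members matched GENCODE M21 (GRCm38) by identifier. Exons of 3 members overlap another gene on the same strand (Fdps, Srebf1 and Scd2) and those of 11 on the other strand. The ratios were tested on simulated data. Alternatives covered scaling, cell weighting, cell filter, class naming, gate strictness, free RNA, the top cell, depth and doublets. Python 3.11.15, numpy 2.4.6, scipy 1.17.1, pandas 2.3.3, scanpy 1.11.5 and leidenalg 0.10.2 were used.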

Additional observations from a re-analysis of the deposited data

Results flagged for a closer look

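Idi1, the isopentenyl diphosphate isomerase gene, had opposite signs between classes in the same pair of libraries. Between low and high burden its log2 ratio was 1.41 in dendritic-like cells (17 and 36 UMIs) and -1.36 in AT2-like cells (53 and 12 UMIs), and both intervals excluded 0. With 1 library per group the difference between the classes was not tested. The ratio in dendritic-like cells ranged from 0.79 to 1.60 over 9 alternative settings, and that in AT2-like cells from -1.50 to -0.59.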

How the results depend on the processing

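Leaving out a replicate was not possible with 1 library per group, and a call here is a 2-fold ratio, not a test. No paired analysis was possible because each group has 1 library. Median-of-ratios scaling moved the median gene by -0.35 to 0.47 on the log2 scale, depending on the comparison. The AT2-like fatty acid list ratio of -0.24 became -0.38 with that scaling, -0.52 with cells weighted alike, -0.0663 with free RNA subtracted, -0.42 with the top cell of each gene left out and -0.46 after thinning to 3000 UMIs. That of the sterol list stayed between -0.41 and -0.23 over 9 alternatives. The count of AT2-like members at least 2-fold lower at high burden (2) was 1 after thinning and 4 with no filter on low counts, and that of higher members was 0 in all 10 alternatives. For metastatic-like over other cells, the sterol list ratio of 0.75 became 0.63 with median-of-ratios scaling, 0.67 with cells weighted alike, 0.97 with free RNA subtracted and 0.64 after thinning, and the fatty acid list ratio of 0.20 became 0.082 with that scaling, 0.11 with classes from clusters, 0.25 with free RNA subtracted and 0.16 after thinning. For alveolar macrophage-like cells, median-of-ratios scaling gave -0.18 for the sterol list, opposite in sign to the 0.03 reported, and -0.997 for the fatty acid list, which was -0.92 after thinning. Cyp51 in stromal-like cells turned to -1.30 with classes from clusters and to -1.34 after thinning, and the stromal-like sterol list to -0.0094 after thinning. The cause was not tested. Ratios of the lists in classes other than AT2-like were set beside these alternatives after seeing the data, and in 109 of 124 alternatives the value stayed within its interval, with 15 outside it, and 11 had the opposite sign, 1 of them where the reported interval excluded 0. For single members, 2545 of 2667 alternatives stayed within the interval, 122 lay outside it, and 140 had the opposite sign, 2 of them where the reported interval excluded 0. The high-burden library was sequenced more deeply per cell, and in the low-burden library 607 cells lay under 3000 UMIs, against 0 at high burden, so these were left out when thinning.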

Other observations

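Metastatic-like cells were split by cycling markers after their levels had been seen. The 696 cells with cycling markers had a median of 27689.5 UMIs and the other 691 had 17534. The sterol list stood at 647 CPM in the cycling cells and 490 CPM in the others (log2 0.40, interval 0.36 to 0.44), and the fatty acid list at 512 and 468 CPM (log2 0.13, interval 0.09 to 0.18). Idi1 had 38.5 against 21.3 CPM (log2 0.85, interval 0.65 to 1.05) and Sqle 61.6 against 41.2 CPM. Scd1 went the other way, with 21.3 CPM in cycling cells and 44.4 CPM in the others (log2 -1.06, interval -1.24 to -0.88), and 1 cell held 10.4% of all Scd1 UMIs of the class.

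B-like cells, with 27 cells at low burden, had 218 CPM of Scd1 (22 UMIs, interval 137 to 330), the level nearest to that of AT2-like cells in that library, where 7.34 CPM was expected from free RNA. At high burden 24 such cells had 65.6 CPM (10 UMIs).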
